A study of Mus musculus with 10 samples.

Results

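RING finger genes encode the largest class of E3 ubiquitin ligases, and the ones described here are those whose symbol begins with Rnf followed by a digit, with Rnf2, Rnf8, Rnf17, Rnf20, Rnf40, Rnf168 and Rnf212 left out. They were taken by symbol and not by their expression, and they numbered 68 of the 15507 genes listed for the germ cells of WT and KI mice. The RING finger is a zinc-binding fold that holds an E2 enzyme loaded with ubiquitin next to the protein that the ligase has bound, so that ubiquitin activated by an E1 enzyme is passed to that protein. Depending on the chain that is built, the marked protein is sent to the proteasome, moved within the cell or given other partners. In the male germ line, RING ligases are known for work in meiotic recombination, in chromatin remodelling of spermatids and in quality control at the endoplasmic reticulum (ER).

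Testes of 5 WT and 5 KI mice, all 45 days old, were dispersed with collagenase and trypsin into a mixture of spermatogonia, spermatocytes and spermatids, and 1 RNA-Seq library was prepared per mouse. WT mice carry the mouse gene of GRTH (Ddx25), a testis-specific RNA helicase, and KI mice are homozygous for a human GRTH gene in which an arginine is changed to histidine. The comparison asks which germ cell transcripts differ when only the mutated helicase is present. Values are normalized counts, that is, the reads on a gene in a library scaled so that the typical gene is level between libraries, and 1 read was worth 0.869 to 1.21 normalized counts depending on the library. Reads on genes numbered 15203687, 14475414, 13323024, 15538608 and 16422347 in WT libraries 1 to 5 and 14622328, 15500582, 12722086, 15182116 and 15186243 in KI libraries 1 to 5. The mean difference, KI against WT, was −349945 reads, smaller than the variation among libraries of a genotype (p = 0.659 by a two-sided exact permutation test). It turned to 7488 reads without WT library 5 and to 130201 reads without KI library 3.

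Ddx25, the targeted gene, was measured at 7615, 7782, 5198, 11101 and 9458 normalized counts in WT libraries 1 to 5 and at 146, 194, 161, 2.88 and 1.84 in KI libraries 1 to 5. Every KI library lay far below every WT library, and KI libraries 4 and 5 lay far below the other KI libraries. Reads were aligned to the mouse genome, while KI mice carry a human GRTH gene. RNA of the human gene may thus be missed, and these counts of mouse Ddx25 are no measure of its expression. The log2 fold change of Ddx25, KI against WT, taken on log2(normalized count + 1), was −7.84 ± 1.0 (SE, limma with Benjamini-Hochberg adjustment, adjusted p = 5.63e-05). It was −5.34 within libraries 1 to 3 and −11.59 within libraries 4 and 5, a difference that passed limma's interaction test (adjusted p = 1.12e-10). KI libraries 4 and 5 held 3 and 2 reads of the gene, so the size of the latter value depends on the added 1. The same libraries also parted on a principal component. Of the principal components of 500 genes with the largest variance, the first (74.1% of the variance) separated the genotypes, and on the second (9.75%) libraries 1 to 3 of both genotypes scored −9.51 to −2.83 and libraries 4 and 5 scored 6.44 to 11.7. No batch is named for the libraries, so each change below is over all 10 libraries unless said otherwise, and the called genes reported singly outside the marker lists are also given within libraries 1 to 3 and within libraries 4 and 5. Within libraries 4 and 5 there are 2 libraries of each genotype, so a call is harder to reach.

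The germ cell label was checked against marker genes. All 7 of the measured spermatogonial markers, all 8 spermatocyte markers, all 8 round spermatid markers and all 10 elongating spermatid markers had reads in every library. The authors report that KI mice lack elongating spermatids, so reads of such markers do not show that these cells were present in KI. The elongating spermatid markers (Tnp1, Tnp2, Prm1, Prm2, Prm3, Odf1, Akap4, Gapdhs, Smcp and Oaz3) summed to 382649, 427423, 458368, 267549 and 257768 normalized counts in WT and to 67234, 74866, 74347, 57954 and 38445 in KI. They were thus lower in every KI library than in any WT library, and within each genotype lower in libraries 4 and 5 than in libraries 1 to 3. All 10 were down-regulated over all libraries and within each of the 2 sets (median log2 fold change −2.39), Prm1 by −2.82, Smcp by −2.74 and Odf1 by −2.55. The most abundant was Prm2 in every WT library and in KI library 3, and Akap4 in the other KI libraries. Prm2, which packs sperm DNA, fell from 89159 ± 25519.5 to 9282 ± 3127 normalized counts (SD, n = 5; log2 fold change −3.30, limma, Benjamini-Hochberg adjusted p = 3.25e-07).

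Round spermatid markers summed to 22141, 22590.4, 21173, 21318 and 20341 normalized counts in WT and to 18776, 19029.5, 19436, 16563 and 12480.4 in KI, with Tssk1 the most abundant except in KI library 5, where it was Acr. Each KI sum was below each WT sum. Catsper3 (−0.58, adjusted p = 0.000761), Spaca1 (−0.53, 0.00604) and Tssk1 (−0.41, 0.022) passed an adjusted p under 0.05 in limma but fell short of 1.5-fold, so that none of the 8 was called over the 10 libraries, nor by edgeR or DESeq2. Within libraries 4 and 5 alone, limma called Acrv1, Spaca1 and Catsper3 down (−0.80, −0.80 and −0.79, adjusted p = 0.0064, 0.0064 and 0.00422). The median log2 fold change of the 8 markers was −0.31, and all 8 were lower in KI, or 4 of 8 when libraries were scaled to their totals. Spermatocyte markers summed to 17582 to 23354 normalized counts in WT and 15771 to 20611 in KI (median log2 fold change −0.06, Piwil1 the most abundant in every library). Spermatogonial markers summed to 1513 to 2135 and 1726 to 2087 (median 0.02), led by Uchl1 in 7 libraries, by Dmrt1 in WT libraries 4 and 5 and by Kit in KI library 5. Of these 15 genes none was called by limma, edgeR or DESeq2 over the 10 libraries. The spermatocyte marker Spo11 (−0.41, adjusted p = 0.0232) and the spermatogonial marker Gfra1 (−0.48, 0.0202) passed an adjusted p under 0.05 in limma, both lower in KI and short of 1.5-fold. Within libraries 4 and 5 alone, Spo11 (−0.59, adjusted p = 0.028) and Tex101 (−0.76, 0.00559) were called down in limma. Within libraries 1 to 3 they changed by −0.30 and 0.09, and the difference between the sets passed the interaction test for Tex101 (limma, adjusted p = 0.0259) but not for Spo11 (0.368). In RNA from mixed germ cells, fewer cells of a type and less RNA per cell cannot be told apart.

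RNA of other testis cells was present as well. Leydig cell markers summed to 11009, 18066, 10290.5, 11286 and 14265 normalized counts in WT and to 21403, 22872, 25692, 14779 and 24672 in KI, with Insl3 the most abundant in every library. The genotypes overlapped only through WT library 2 and KI library 4. Of the 7 genes, 3 were up-regulated in limma (Insl3 by 0.82, Cyp17a1 by 0.70 and Cyp11a1 by 0.69 on the log2 scale; list median 0.69), 3 in edgeR, 5 in DESeq2 and all 7 with library totals. With the replicate block limma also called Hsd3b1 (0.64, adjusted p = 0.0125, beside 0.162 without it) and Lhcgr (0.76, 0.0153, beside 0.0583). Within libraries 4 and 5 alone, limma called none of the first 3 (Insl3 0.34, Cyp17a1 0.84 and Cyp11a1 0.73, adjusted p = 0.213, 0.0827 and 0.0689) but called Lhcgr (1.33, 0.0409). Macrophage markers summed to 911, 1083, 1122, 1025 and 1113 in WT and to 1472, 1695, 1489.8, 1487 and 1732 in KI, with Mrc1 or Cd74 the most abundant, and every KI sum exceeded every WT sum. Of these 9 genes, 6 were up-regulated in limma, and edgeR and DESeq2 called 6 each, the largest rises being Cd74 (1.11), C1qa (0.90), Cd68 (0.82) and Csf1r (0.78), and the list median was 0.69. Within libraries 4 and 5 alone, Cd74, C1qa and Csf1r were called by limma.

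Endothelial markers summed to 272, 265, 315, 303 and 365 normalized counts in WT and to 451, 456, 424, 607 and 805 in KI, led by Vwf, and again without overlap. Vwf (1.05) and Cdh5 (0.66) were up-regulated among the 5, whose median was 0.46, and within libraries 4 and 5 alone Vwf was (1.59, limma, adjusted p = 0.000344) and Cdh5 was not (0.45, 0.394). Peritubular myoid markers summed to 120.2 to 208 in WT and 191 to 236 in KI. Acta2 (0.78) and Des (1.04) were up-regulated in limma among the 4 tested (median 0.27), while 2 of the 4 were lower in KI. DESeq2 called 2 and edgeR 1, and within libraries 4 and 5 alone limma called neither (0.64 and 0.76, adjusted p = 0.21 and 0.313). Acta2, Tagln or Myh11 was the most abundant. Sertoli cell markers summed to 2687 to 4494 in WT and 2770.4 to 5048 in KI, led by Ctsl. None of the 8 Sertoli genes was called by limma, edgeR or DESeq2 over the 10 libraries (median 0.19). Gata4 was higher in KI (0.42, limma, adjusted p = 0.0408) but short of 1.5-fold. Within libraries 1 to 3 alone, limma called Amh (1.41, adjusted p = 0.0077) and Rhox5 (0.65, 0.0224) up, and within libraries 4 and 5 alone it called Ctsl down (−0.65, 0.0107, beside 0.39 in libraries 1 to 3). None of the 3 passed the interaction test of that difference (adjusted p = 0.138, 0.156 and 0.0533). No listed marker was at 0 in any library, and 1 spermatogonial marker, Nanos3, was not in the table.

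**Figure D1:**
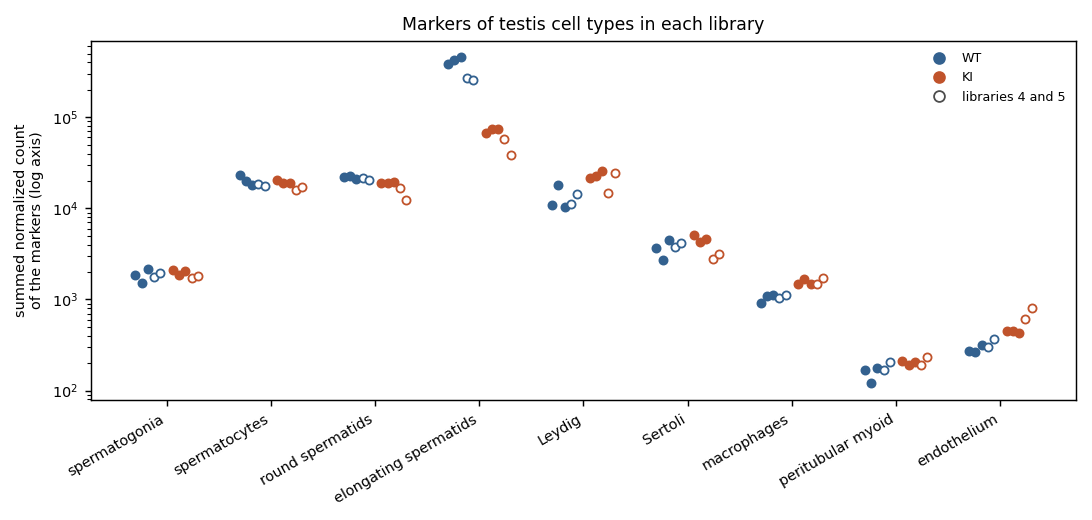
Summed normalized counts of marker genes of testis cell types in each WT and KI library, on a log axis, each point being 1 library (filled for libraries 1 to 3, empty for libraries 4 and 5). Sums of elongating spermatid markers lay between 257768 and 458368 in WT and between 38445 and 74866 in KI, while macrophage and endothelial sums were higher in every KI library.

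All 68 Rnf genes had reads in the germ cells, and 67 passed the filter on low counts and were tested. Together they took 0.745%, 0.758%, 0.768%, 0.739% and 0.758% of the reads on genes in WT libraries 1 to 5 and 0.711%, 0.733%, 0.723%, 0.734% and 0.707% in KI libraries 1 to 5. The share was 0.754 ± 0.0115% in WT and 0.722 ± 0.0123% in KI (SD, n = 5), and every KI library lay below every WT library. The Rnf genes called down-regulated below summed to 26140 to 36876 normalized counts in WT and 12466 to 14182 in KI. Those not called summed to 83126 to 89033 in WT and 76781 to 91223 in KI, with overlap. These sums are not shares, because the normalized total was 1.55e+07 to 1.67e+07 in WT and lower, at 1.29e+07 to 1.46e+07, in KI. Taken as a share of that total, the Rnf genes not called were higher in every KI library than in any WT library. The change itself made this split, so it describes which normalized counts were lower and tests nothing. The share weights genes by their reads and is relative to all other genes, so it does not mean that most Rnf genes were lower. Gene by gene, 34 were lower and 33 higher in normalized counts, as given below. With libraries scaled to their totals, which is the scale of the share, 17 were lower and 50 higher.

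Of the 67 tested Rnf genes, 11 were differentially expressed at an adjusted p under 0.05 and a fold change of at least 1.5 (limma, Benjamini-Hochberg over 15389 genes), or 16.4% beside 14.4% of all genes tested. Down-regulation was called for 7 of them (10.4%, beside 8.22% of all genes) and up-regulation for 4 (5.97%, beside 6.13%). The same shares of all genes stand beside the counts of each role group and pathway below. The role groups overlap, so that some genes are counted in 2 of them. At an adjusted p under 0.05 without a fold change, 15 Rnf genes passed (22.4%, beside 22.9%), or 25 when limma was paired by library number as a replicate block (37.3%, beside 32.0% of all genes in the same fit). The groups did not overlap for 14 (20.9%, beside 17.7%), of which 11 were lower and 3 higher in KI. The median log2 fold change of the Rnf genes was −0.01, beside 0.03 for all genes, with 34 lower and 33 higher in KI, and 52 were neither past the adjusted p nor past a log2 fold change of 0.58 either way. Within libraries 1 to 3 alone, 9 of 68 were called (13.2%, beside 16.0% of all genes), and within libraries 4 and 5 alone 9 of 67 (13.4%, beside 10.2%). Scaling to library totals moved the median of all genes from 0.03 to 0.25. Calls among all genes then went from 1265 down and 944 up to 789 down and 2145 up, and those among the Rnf genes from 7 down and 4 up to 5 down and 5 up (median 0.22). Rnf148 and Rnf212b lost their call on that scale and Rnf5, an ER membrane ligase named here after its values were seen, gained one.

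**Figure D2:**
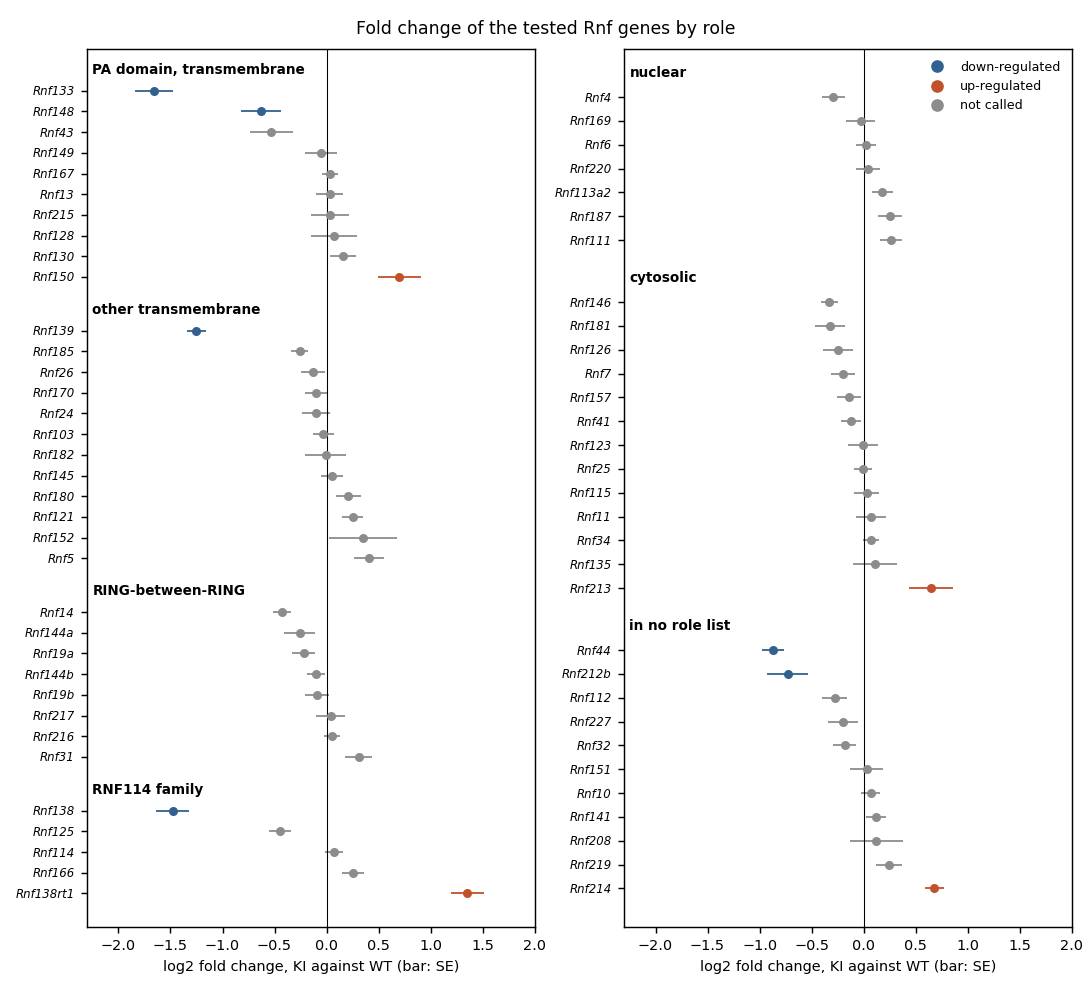
Log2 fold change of KI against WT for 66 of the 67 tested Rnf genes, grouped by role with each gene shown once, with bars of 1 SE from limma and colour for the direction called. The 6 down-regulated genes shown span −1.66 to −0.63, the 4 up-regulated genes span 0.65 to 1.35, and the other 56 lie between.

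Per kb of exon, the Rnf genes spanned a wide range of levels in WT. Rnf126, which clears mislocalized membrane proteins in the cytosol, had the highest mean at 4642 ± 706 normalized counts per kb (SD, n = 5), followed by Rnf19b at 4161 ± 265 and Rnf151 at 4046 ± 654. The WT libraries of these 3 genes overlapped (3726 to 5473, 3802 to 4491 and 3495 to 5174 per kb), so that their order lies within the spread between libraries. Rnf139 and Rnf187, a nuclear coactivator of AP-1, came next at 2568 ± 277 and 2449.6 ± 335 per kb. At the other end were Rnf43, a brake on Wnt receptors, at 8.77 per kb, Rnf213 at 7.46, Rnf152 at 2.34, Rnf150 at 1.04 and Rnf122 at 0.565. Rnf43 and Rnf152 are named here after their values were seen. In KI the first 3 were Rnf151 (4175 ± 944 per kb), Rnf19b (3945 ± 648) and Rnf126 (3921 ± 787), and Rnf139 moved from rank 4 to rank 10.

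None of the 4 genes other than Rnf139 among these highest levels was called. Rnf126 was at 6349.6, 7408, 7567, 8902 and 9325 normalized counts in WT and 4905, 6519.9, 6087, 8418 and 7479.9 in KI, with overlapping groups (log2 fold change −0.25, limma, Benjamini-Hochberg adjusted p = 0.23, or 0.0229 with the replicate block). Rnf19b, a RING-between-RING ligase, was at 9637, 10831, 10743, 10144 and 11385 in WT and 7994, 9609, 9233, 12298 and 10873 in KI (−0.09, adjusted p = 0.631, same test). Its KI libraries 4 and 5 stood above the other KI libraries and within or above the WT range, and the sign turned with library totals (0.14) and within libraries 4 and 5 (0.11). Rnf187 was at 3983, 4322, 4723, 5648 and 5085 in WT and 4649, 5658, 5293, 6234 and 6381 in KI (0.25, limma, Benjamini-Hochberg adjusted p = 0.14, or 0.0196 with the replicate block). Both genotypes were higher in libraries 4 and 5 than in libraries 1 to 3.

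Rnf151, which is expressed in spermatids and is known from acrosome formation, was at 4156, 4437, 4718, 6151 and 4593 normalized counts in WT and 4997, 6204, 5602, 4804 and 3213 in KI. WT library 4 and KI library 2 were the highest and KI library 5 the lowest, so that the groups overlapped. The log2 fold change was 0.03 (limma, Benjamini-Hochberg adjusted p = 0.935). It was 0.33 within libraries 1 to 3, where the groups did not overlap (limma, adjusted p = 0.00746, short of 1.5-fold), and −0.44 within libraries 4 and 5 (0.19), and the difference between those values had an adjusted p of 0.106 in limma's interaction test. The sign also turned without WT library 1 (−0.02), WT library 2 (−0.00), KI library 2 (−0.06) or KI library 3 (−0.03).

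The ligases that pair a protease-associated domain in the lumen with a RING finger in the cytosol numbered 10, with 2 down-regulated, 1 up-regulated (3 of 10 called, beside 14.4% of all genes) and a median log2 fold change of 0.03. DESeq2 called 2 of them, and with library totals 1 was down and 1 up. Rnf133 and Rnf148 are relatives known for expression in the testis, and RNF133 sits in the ER membrane of spermatids. Rnf133 lies on the minus strand of chromosome 6 from 23648869 to 23650306 (mm10) and was at 2439, 2673, 2599, 1366 and 1589.7 normalized counts in WT and at 676, 708, 727, 684 and 492 in KI. WT libraries 4 and 5 were lower than WT libraries 1 to 3, KI library 5 was the lowest, and the groups did not overlap. Rnf133 fell from 2133 ± 609.6 to 657 ± 94.5 (SD, n = 5), a log2 fold change of −1.66 ± 0.18 (SE, limma, Benjamini-Hochberg adjusted p = 9.62e-06), with −1.87 within libraries 1 to 3 and −1.34 within libraries 4 and 5. Per kb it moved from rank 8 of the 68 genes in WT to rank 17 in KI. It was the most abundant of the 10 in every WT library, and Rnf167, an endosomal ligase, was in every KI library.

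Rnf148 lies 3589 bases from Rnf133 on the same strand of chromosome 6 (23653895 to 23655137) and, unlike most Rnf genes, has 1 exon. It was at 870.3, 918, 913, 743 and 663 normalized counts in WT and at 576, 673, 698, 498 and 297 in KI. KI library 5 was far below the rest, and the groups overlapped through WT library 5 and KI libraries 2 and 3. The mean fell from 821 ± 113 to 548 ± 161 (SD, n = 5; log2 fold change −0.63 ± 0.19 SE, limma, Benjamini-Hochberg adjusted p = 0.0269). The change was −0.48 within libraries 1 to 3, short of 1.5-fold, and −0.87 within libraries 4 and 5 (interaction −0.39, limma adjusted p = 0.423). The call did not hold without WT library 1 (−0.61, adjusted p = 0.062), WT library 2 (−0.59, 0.066), WT library 3 (−0.59, 0.0602) or KI library 4 (−0.61, 0.0546), all from limma. Without KI library 5 the log2 fold change of −0.43 was below the fold threshold, as it was in DESeq2 (−0.58) and with library totals (−0.40).

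Both genes lie within the span of Cadps2 on its strand, where reads of unspliced Cadps2 RNA and reads of these genes cannot be told apart. Cadps2 had few reads, 56.9 ± 11.2 normalized counts in WT and 48.5 ± 12.3 in KI (SD, n = 5; log2 fold change −0.23, limma, Benjamini-Hochberg adjusted p = 0.471). The coding sequences of Rnf133 and Rnf148 were identical at 67.1% of 902 aligned bases, with a longest exact match of 17 bases, and neither shared a stretch of 75 bases with any other transcript. Elongating spermatid markers, given above for every library, fell together with both genes, and in WT both were lower in libraries 4 and 5, as those markers were. Their part in these changes was not tested.

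Rnf150, a further gene of this group (chromosome 8, plus strand, 82863356 to 83091272), was near the bottom of the range per kb. It was at 18.8, 19.7, 16.9, 18.1 and 16.0 normalized counts in WT and at 32.7, 36.5, 29.9, 21.2 and 30.4 in KI. The WT libraries were close together and KI library 4 was the lowest of KI, yet above every WT library. Rnf150 rose from 17.9 ± 1.46 to 30.1 ± 5.66 (SD, n = 5), a log2 fold change of 0.70 ± 0.21 (SE, limma, Benjamini-Hochberg adjusted p = 0.0235). It was 0.80 within libraries 1 to 3 and 0.55 within libraries 4 and 5, where it was not called (limma, adjusted p = 0.456; interaction −0.25, adjusted p = 0.823). The call did not hold in limma without KI library 1 (0.67, adjusted p = 0.0563), KI library 2 (0.63, 0.072) or KI library 3 (0.70, 0.0511), nor with a pseudocount of 10 (0.51). The rise went with higher Leydig, macrophage and endothelial markers, whose sums are given above, and their part in it was not tested. The remaining 7 genes with this domain were not called.

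The other transmembrane RING ligases numbered 17 tested genes, of which Rnf19a, Rnf19b, Rnf144a, Rnf144b and Rnf217 are also RING-between-RING ligases, with 1 down-regulated (median −0.09, or 0.14 with library totals). That gene was Rnf139, an ER membrane ligase with a sterol-sensing domain, also called TRC8, at 58889229 to 58902391 on the plus strand of chromosome 15. It was at 11487, 12854, 11345, 9618 and 10527 normalized counts in WT and at 4778, 4472, 4335, 5053 and 4807 in KI. All KI libraries were alike and all were below every WT library. Rnf139 fell from 11166 ± 1203 to 4689 ± 286 (SD, n = 5), a log2 fold change of −1.25 ± 0.096 (SE, limma, Benjamini-Hochberg adjusted p = 3.23e-07), with −1.39 within libraries 1 to 3 and −1.03 within libraries 4 and 5. The elongating spermatid markers fell in the same libraries, and their part was not tested. In WT libraries 1 to 3 it had more reads than any other Rnf gene, and in the other 7 libraries Rnf19b did. Of its 75-base stretches 23.6% also occur in transcripts of other genes, mainly Tatdn1 on the opposite strand, which was at 65.0 ± 26.8 in WT and 54.2 ± 13.3 in KI (log2 fold change −0.20, limma, Benjamini-Hochberg adjusted p = 0.656).

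Rnf185, which acts in ER-associated degradation, belongs to the same group and passed the adjusted p but not the fold change (−0.26, limma, Benjamini-Hochberg adjusted p = 0.0284). Its WT libraries were at 825 to 936 normalized counts and its KI libraries at 677 to 765, without overlap. It overlaps 8430429K09Rik, which was lower in KI as well (−0.53, adjusted p = 0.00569, same test). Rnf122 was the one Rnf gene left untested because of low counts. It was at 5.23, 8.09, 2.42, 5.02 and 4.71 normalized counts in WT and 14.2, 20.9, 10.3, 7.69 and 12.0 in KI, and only WT library 2 and KI library 4 overlapped.

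None of the 8 RING-between-RING ligases, which take ubiquitin from the E2 onto themselves before passing it on, was called by limma, edgeR or DESeq2, while 2 had an unadjusted p under 0.05. Their median log2 fold change was −0.10, or 0.13 with library totals. Rnf14, a coactivator of the androgen receptor that also acts on stalled ribosomes, was at 1532, 1574, 1441, 1417 and 1426 normalized counts in WT and at 1235, 1058, 1059, 1139.5 and 1017 in KI. The groups did not overlap, and the log2 fold change of −0.43 ± 0.083 (SE, limma, Benjamini-Hochberg adjusted p = 0.00168) stayed short of 1.5-fold. Rnf19a and Rnf19b had the most reads of the group, Rnf19a in WT libraries 1 and 2 and Rnf19b elsewhere.

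The RNF114 family, ligases with further zinc fingers and a ubiquitin-interacting motif, held 5 genes, with 1 down-regulated, 1 up-regulated and a median of 0.07. Rnf138, whose product is recruited to DNA breaks and promotes their resection for homologous recombination, lies on the plus strand of chromosome 18 (21001300 to 21028225). It was at 9402, 9551, 9714, 6338 and 5916 normalized counts in WT and at 3296, 3084, 3124, 2766 and 2193 in KI. In both genotypes libraries 4 and 5 were the lowest, and the groups did not overlap. Rnf138 fell from 8184 ± 1887 to 2892 ± 435 (SD, n = 5), a log2 fold change of −1.48 ± 0.16 (SE, limma, Benjamini-Hochberg adjusted p = 7.73e-06), with −1.59 within libraries 1 to 3 and −1.31 within libraries 4 and 5. It had the most reads of the family in every library but KI library 5, where Rnf166 did. The elongating spermatid markers moved with it, and their part was not tested.

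Rnf138rt1, a relative of Rnf138 with 1 exon on the minus strand of chromosome X (163760139 to 163761333), changed in the opposite direction. It was at 274, 281, 376, 209.6 and 229.7 normalized counts in WT and at 761, 758, 795, 659.7 and 507 in KI. As with Rnf138, libraries 4 and 5 were the lowest in both genotypes, but here every KI library was above every WT library. Rnf138rt1 rose from 274 ± 64.2 to 696 ± 117 (SD, n = 5), a log2 fold change of 1.35 ± 0.16 (SE, limma, Benjamini-Hochberg adjusted p = 1.93e-05), with 1.33 within libraries 1 to 3 and 1.39 within libraries 4 and 5. Per kb of exon it moved from rank 32 of 68 in WT (230.0 ± 53.9) to rank 14 in KI (584 ± 98.3), while Rnf138 moved from rank 11 (1006 ± 232) to rank 23 (355 ± 53.5). In normalized counts Rnf138 stayed above Rnf138rt1 in every library, and their order per kb depends on the exon length taken for Rnf138 (8.138 kb over all its transcripts). The coding sequences were identical at 72.1% of 732 aligned bases, the longest exact match was 21 bases, and no 75-base stretch was shared between them.

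Rnf125, which acts on the RNA sensor RIG-I and ends 13940 bases before Rnf138 begins, was at 1344, 1667, 1273, 1450.4 and 1544 normalized counts in WT and at 1030.0, 1018, 905, 1249 and 1148 in KI. Every KI library was below every WT library, and the log2 fold change was −0.45 ± 0.11 (SE, limma, Benjamini-Hochberg adjusted p = 0.00625), short of 1.5-fold. With Rnf14, Rnf146 and Rnf185 it made up the 4 genes with an adjusted p under 0.05 and a smaller fold change, from −0.45 to −0.26, all lower in KI and none overlapping between groups. Passing the test with so small a change favours groups that do not overlap. The share of all genes of this kind that were lower in KI is not given here, so neither trait is read as particular to Rnf genes. Among the alternatives, the smallest changes were −0.22 for Rnf125, −0.20 for Rnf14, −0.10 for Rnf146 and −0.04 for Rnf185. Within libraries 4 and 5 alone none of the 4 passed (limma, adjusted p = 0.173, 0.0931, 0.304 and 0.351, in the same order).

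Of 8 nuclear ligases, which act in SUMO-targeted degradation, DNA repair, splicing and transcription, Rnf138 was the one called (median 0.03). It had the most reads of them in every WT library and Rnf187 in every KI library. Of 16 cytosolic ligases of signalling and quality control, among them Rnf114, Rnf125 and Rnf166 of the RNF114 family, 1 was up-regulated (median −0.01), and Rnf126 had the most reads in every library. The gene called was Rnf213, a very large ligase with an ATPase ring, on the plus strand of chromosome 11 (119390099 to 119487419). It was at 128, 96.0, 100.2, 116 and 190.1 normalized counts in WT and at 173, 166, 159.6, 182 and 316 in KI. Library 5 was the highest in each genotype, and WT library 5 lay above the other 4 KI libraries. Rnf213 rose from 126 ± 38.0 to 199 ± 66.0 (SD, n = 5), a log2 fold change of 0.65 ± 0.21 (SE, limma, Benjamini-Hochberg adjusted p = 0.0356), with 0.63 within libraries 1 to 3 and 0.69 within libraries 4 and 5, where it was not called (limma, adjusted p = 0.151; interaction 0.06, adjusted p = 0.956).

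The call of Rnf213 did not hold in limma without WT library 1 (0.67, adjusted p = 0.0606), WT library 2 (0.56, 0.0906), WT library 3 (0.58, 0.0819) or WT library 4 (0.63, 0.0655). It did not hold either without KI library 4 (0.67, adjusted p = 0.0528) or KI library 5 (0.47, 0.0702, limma). Endothelial and macrophage markers were also higher in KI, and library 5 had the highest endothelial sum in each genotype. Their part in the value of Rnf213 was not tested. Rnf146, which binds proteins marked with poly(ADP-ribose), was at 966 to 1104 normalized counts in WT and 744 to 887 in KI (−0.33, limma, Benjamini-Hochberg adjusted p = 0.0108). It shares 71.5% of its 75-base stretches with other transcripts, mainly Echdc1, which did not pass the test (0.08, adjusted p = 0.713).

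The 12 Rnf genes placed in no role group included 3 that were down-regulated and 1 that was up-regulated (median −0.08). Rnf44, a RING ligase whose targets are little known, lies on the minus strand of chromosome 13 (54679399 to 54693961). It was at 2461, 2643, 2922, 1932 and 2402 normalized counts in WT and at 1242, 1265, 1318, 1433 and 1438 in KI. KI libraries 4 and 5 were the highest of KI, and no KI library reached WT. Rnf44 fell from 2472 ± 363 to 1339 ± 91.9 (SD, n = 5), a log2 fold change of −0.87 ± 0.11 (SE, limma, Benjamini-Hochberg adjusted p = 2.87e-05), with −1.07 within libraries 1 to 3 and −0.59 within libraries 4 and 5. The elongating spermatid markers were lower in KI too, but within KI their sums were lowest in libraries 4 and 5, where Rnf44 was highest. Their part was not tested.

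Of the 7 down-regulated Rnf genes, 5 changed less within libraries 4 and 5 than within libraries 1 to 3. By limma's interaction test of that difference 0 of 67 Rnf genes and 38 of 15389 genes passed an adjusted p under 0.05, and 9 and 2479 had an unadjusted p under 0.05. It was run in limma alone and was added after the data were seen.

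Rnf212b, a relative of the meiotic crossover gene Rnf212, lies on the plus strand of chromosome 14 (54814150 to 54854109) and was at 49.2, 52.0, 59.2, 84.3 and 55.5 normalized counts in WT and at 45.1, 32.2, 42.2, 27.9 and 31.3 in KI. WT library 4 stood above the other WT libraries, and all KI libraries were below all WT libraries, KI library 1 by little. The mean fell from 60.0 ± 14.1 to 35.7 ± 7.49 (SD, n = 5; log2 fold change −0.73 ± 0.20 SE, limma, Benjamini-Hochberg adjusted p = 0.0145). The change was −0.43 within libraries 1 to 3 (adjusted p = 0.158) and −1.18 within libraries 4 and 5 (0.0354, both limma), a difference that did not pass the interaction test (adjusted p = 0.321). With library totals it was −0.50 (limma, adjusted p = 0.075). Among markers of spermatocytes, the cells in which crossovers form, Spo11 and Tex101 were also called down within libraries 4 and 5. Tex101 was at 0.09 within libraries 1 to 3. The other spermatocyte markers were not called within libraries 4 and 5. There Mybl1, Dmc1, Sycp3 and Sycp1 were higher in KI (0.25, 0.13, 0.09 and 0.07), and Hormad1 and Piwil1 were lower (−0.05 and −0.10). The sums overlapped between the genotypes, as given above. The part of these markers in the change of Rnf212b was not tested. Rnf212b shares 6.39% of its 75-base stretches with Homez, which did not pass the test (−0.12, limma, Benjamini-Hochberg adjusted p = 0.396).

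Rnf214 was the fourth up-regulated gene, on the minus strand of chromosome 9 (45863422 to 45906912). It was at 483, 539, 476, 455 and 510.1 normalized counts in WT and at 755, 722, 732, 900.1 and 863 in KI. The WT libraries were close together, KI libraries 4 and 5 were the highest, and there was no overlap. Rnf214 rose from 493 ± 32.4 to 794 ± 81.5 (SD, n = 5), a log2 fold change of 0.68 ± 0.095 (SE, limma, Benjamini-Hochberg adjusted p = 8.76e-05). It was 0.56 within libraries 1 to 3, short of 1.5-fold with an adjusted p of 0.000121, and 0.87 within libraries 4 and 5 (interaction 0.31, adjusted p = 0.329, all limma). Rnf214 shares 19.4% of its 75-base stretches with its neighbours Bace1 and Pcsk7, which were not called (0.27 and −0.25, limma, Benjamini-Hochberg adjusted p = 0.355 and 0.113). Leydig, macrophage and endothelial markers were higher in KI as well, and their part was not tested.

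**Figure D3:**
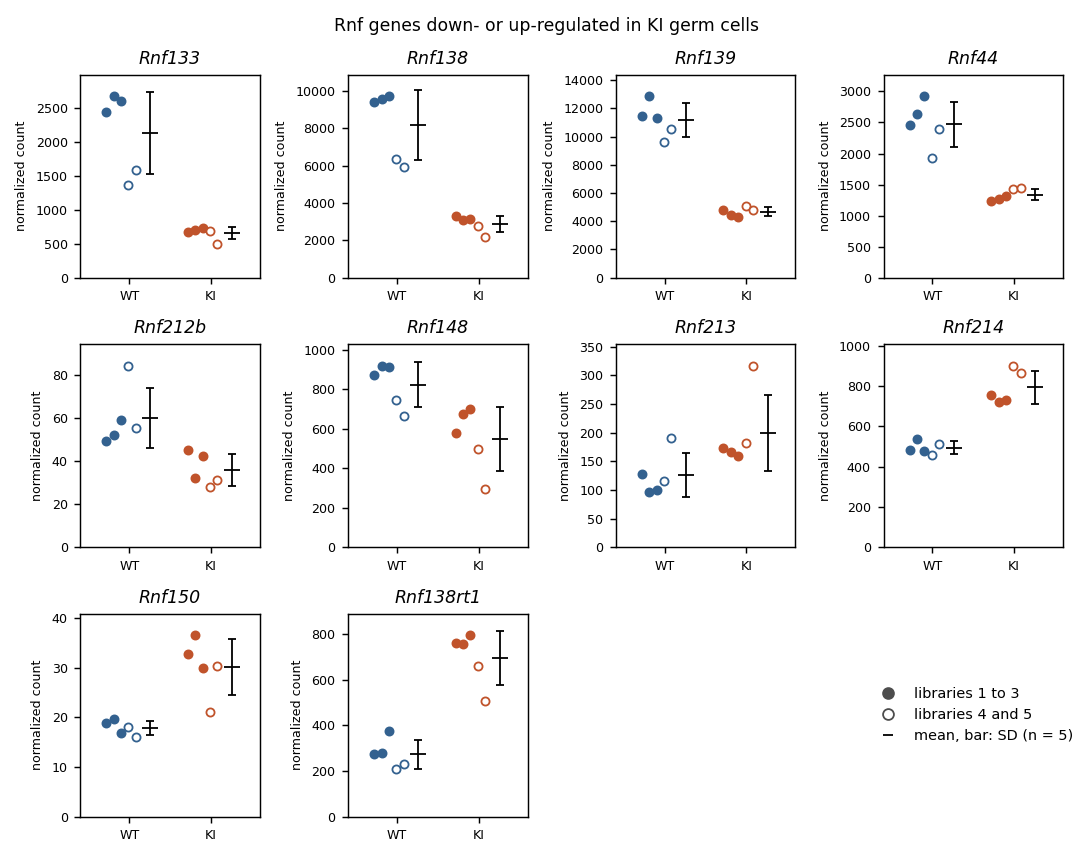
Normalized counts of 10 of the 11 differentially expressed Rnf genes in each WT and KI library, each point being 1 library, filled for libraries 1 to 3 and empty for libraries 4 and 5, with black bars for the mean and SD (n = 5). WT and KI do not overlap for 8 of the 10 genes shown, the exceptions being Rnf148 and Rnf213.

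Across these roles, 7 Rnf genes are known for expression in the testis or germ cells, with 3 down-regulated (Rnf133, Rnf148 and Rnf212b), 1 up-regulated (Rnf138rt1) and a median of −0.18. That is 57.1% called, beside 14.4% of all genes. With library totals 1 was down and 1 up, with a median of 0.05. Rnf32, Rnf141 and Rnf151 were the others. Rnf32 had the most reads of the list in WT libraries 1 to 3 and in KI libraries 1 and 5, and Rnf151 in the other 5 libraries. Rnf32 was at 5512 ± 683 normalized counts in WT and 4868 ± 556 in KI (SD, n = 5; log2 fold change −0.18, limma, Benjamini-Hochberg adjusted p = 0.281). Rnf32 and Rnf141 were named after their values were seen.

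The down- and up-regulated Rnf genes lay on 10 different chromosomes, and the pair Rnf133 and Rnf148 was the one case of called neighbours. Chromosome 11 held the most Rnf genes, 12, of which 1 was called, and chromosome X held 2, of which 1 was called. Single-exon genes numbered 3 of the 68, Rnf148, Rnf138rt1 and Rnf113a2, and the last, a splicing-associated ligase named after its values were seen, was not called. Of the 68 genes 35 shared no 75-base stretch with other transcripts, and 11 shared more than 10%.

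Promoter sequence was examined for the called genes that were found in the table of RefSeq promoters (build GRCm38.p6). It held 52 of the 68 Rnf genes and 7 of the 11 called, with Rnf138, Rnf139 and Rnf150 among those missing. In the 250 bases upstream of each start, both strands were searched for the letters TGACGTCA (cAMP response element), TGACG (its short form, which lies inside the long one), CACGTG (E-box), CCAAT (the box named for it) and GGGCGG (GC box). Among all 32851 promoters 1.55% held TGACGTCA, 17.8% TGACG, 6.02% CACGTG, 33.8% CCAAT and 32.7% GGGCGG. Some genes have more than 1 start, and of the 68 promoters of Rnf genes 1, 17, 3, 23 and 40 held them, in the same order (1.47%, 25.0%, 4.41%, 33.8% and 58.8%). Of the 9 promoters of called genes, those counts were 0, 1, 1, 3 and 6. The median GC content was 52.4% over all promoters and 59.8% over those of Rnf genes. A match is a stretch of letters and no measure of binding.

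The promoters of Rnf133, Rnf148 and Rnf138rt1 are printed because these are the testis-known genes with the neighbouring falls and the largest rise. All are on the minus strand, read 5′ to 3′ towards the start, and capitals mark the letters searched for. Rnf133 (chr6:23650306-23650555, 36.8% GC) has ATTGG, the reverse complement of CCAAT, at −45 to −41 from its start. Rnf148 (chr6:23655137-23655386, 30.8% GC) has CCAAT at −140 to −136 and ATTGG at −97 to −93. Rnf138rt1 (chrX:163761333-163761582, 50.8% GC) has CGTCA, the reverse complement of TGACG, at −87 to −83.
Rnf133: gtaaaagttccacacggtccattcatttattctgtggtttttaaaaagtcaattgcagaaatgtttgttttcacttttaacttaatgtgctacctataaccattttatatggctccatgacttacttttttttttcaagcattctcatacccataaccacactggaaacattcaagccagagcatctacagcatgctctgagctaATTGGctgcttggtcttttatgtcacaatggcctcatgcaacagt
Rnf148: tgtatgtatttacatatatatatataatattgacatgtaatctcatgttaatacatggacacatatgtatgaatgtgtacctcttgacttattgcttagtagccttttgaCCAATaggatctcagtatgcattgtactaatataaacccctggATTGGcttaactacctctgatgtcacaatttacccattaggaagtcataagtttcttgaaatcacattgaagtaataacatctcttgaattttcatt
Rnf138rt1: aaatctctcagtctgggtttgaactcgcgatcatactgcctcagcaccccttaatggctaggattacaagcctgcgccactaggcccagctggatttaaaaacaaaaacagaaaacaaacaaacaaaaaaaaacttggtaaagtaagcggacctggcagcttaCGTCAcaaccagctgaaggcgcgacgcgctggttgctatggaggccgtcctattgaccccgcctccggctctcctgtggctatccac

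Around the Rnf genes, ubiquitin itself and the E1 enzymes were given by 7 genes, of which 1 was down-regulated (median −0.08). Ubb, a polyubiquitin gene with the most reads of the list in every library, was at 76541 ± 5627 in WT and 72469 ± 6569.6 in KI (SD, n = 5; log2 fold change −0.08, limma, Benjamini-Hochberg adjusted p = 0.684).

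Of 18 E2 enzymes that work with RING ligases, 4 were down-regulated and 1 up-regulated (27.8% called, beside 14.4% of all genes; median −0.02), and with library totals 2 were down and 1 up. Ube2j1, the ER membrane E2 that serves ligases such as RNF133, was at 7147, 7999.6, 8220.3, 5571 and 5849.6 normalized counts in WT and at 3199.9, 3291, 3282, 3423 and 2757 in KI. WT libraries 4 and 5 were the lowest of WT, as they were for Rnf133 and Rnf138, and no KI library reached WT (log2 fold change −1.11 ± 0.12 SE, limma, Benjamini-Hochberg adjusted p = 8.15e-06). Ube2n, which builds signalling chains with an inactive E2 as partner, changed by −0.68 (limma, Benjamini-Hochberg adjusted p = 0.0013), Ube2k by −1.83 (1.06e-07) and Ube2l6, the E2 of the interferon-induced modifier ISG15, by 1.13 (0.00455). Ube2w, chosen after its values were seen, was the remaining one called (−0.60, adjusted p = 0.0106, same test). Within libraries 1 to 3 the changes of Ube2j1, Ube2n, Ube2k, Ube2l6 and Ube2w were −1.25, −0.78, −2.08, 1.34 and −0.59, and within libraries 4 and 5 they were −0.89, −0.53, −1.46, 0.80 and −0.61. In the latter set Ube2n fell short of 1.5-fold and Ube2l6 did not pass (limma, adjusted p = 0.227). The elongating spermatid markers fell along with the 4 that were down, and their part was not tested. The most reads of the list were on Ube2j1 in WT libraries 1 to 3 and on Ube2d2b, a member of the common UBE2D group, in the other 7 libraries.

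Among 21 further ligases with a RING or RING-like domain in the membrane, 2 were down-regulated and 0 up-regulated by limma, and edgeR and DESeq2 called 2 each (median −0.04). With library totals 1 was down and 0 up (median 0.19). Znrf4, a testis ligase of the ER membrane with a protease-associated domain, was at 8755, 10492, 13219, 14716 and 11877 normalized counts in WT and at 4484, 7033, 6228, 5463 and 3998 in KI, again without overlap (log2 fold change −1.13 ± 0.16 SE, limma, Benjamini-Hochberg adjusted p = 0.000146). Cgrrf1 was the other (−0.61, adjusted p = 0.000142, same test). Znrf4 changed by −0.88 within libraries 1 to 3 and −1.50 within libraries 4 and 5, and Cgrrf1 by −0.72 and −0.44, not called in the latter (limma, adjusted p = 0.086). Elongating spermatid markers were also lower in KI, and their part in both falls was not tested. March10, known from spermatids, had the most reads of the list in 8 libraries and Znrf4 in WT libraries 3 and 4. March10 was at 13365 ± 735 in WT and 10684 ± 1391 in KI (SD, n = 5; −0.33, limma, Benjamini-Hochberg adjusted p = 0.0303), which is short of 1.5-fold.

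The 7 Rnf genes left out by the rule act mainly in chromatin, DNA damage, piRNA and crossover pathways. None was called by limma, edgeR or DESeq2, and 2 had an unadjusted p under 0.05 (median 0.11, or 0.34 with library totals). Rnf168, named after its values were seen, was at 630.3 ± 42.3 normalized counts in WT and 752 ± 50.2 in KI without overlap (SD, n = 5; log2 fold change 0.25, limma, Benjamini-Hochberg adjusted p = 0.0473). Rnf40 had the most reads of these in every library but WT library 1, where Rnf17 did.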

How the data were processed

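The authors used STAR and mm10 for alignment and the Partek E/M model on RefSeq genes for counting, scaled each library by its DESeq2 size factor and deposited this signal per gene; the version of STAR is not given in the sources used here. Whole reads were recovered for 100% of values under 5000 reads (tolerance 0.1 read). Where a gene has no read, up to 3 remain possible, for counting error only.

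Values were compared as log2(value + 1) with limma 3.58.1 (R 4.3.3) with a variance trend, on 15389 genes passing filterByExpr of edgeR 4.0.16, adjusted by Benjamini-Hochberg; genes were called at an adjusted p under 0.05 and a fold change of at least 1.5. The added 1 shrinks changes of low genes. edgeR's quasi-likelihood test and DESeq2 1.42.0 on recovered reads, other scalings, pseudocounts, thresholds, no filter, a replicate block, libraries 1 to 3 or 4 and 5 alone and leaving out each library were alternatives. Depth was compared by an exact permutation test over 252 arrangements (smallest p 0.00794). The tests were checked on simulated data.

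Libraries of the same number correlated after removal of group means (r = 0.306, 0.105, 0.28, 0.216 and 0.462), so numbers were treated as pairs in the alternative with a replicate block. No label pairs the mice, and the same number was not always the best match. WT library 3 correlated best with KI library 2, and KI library 2 with WT library 3. The pairs are thus an assumption, on which p-values with the replicate block depend. Replicates differed beyond sampling noise (chi-square per degree of freedom 2.68 to 46.7). Exon lengths, 75-base stretches and coding sequences are from GENCODE vM21 (mm10). Counting is not stated to use strand.

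The genes named are every called Rnf gene, Rnf133 and Rnf138, the 5 with the highest WT level per kb, those past the adjusted p below the fold change, those not tested, Ddx25, and of each list the called genes (the 4 of largest change where more) and the most abundant; some of these genes are not reported here. Members and lists were chosen with earlier results of these data known.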

Additional observations from a re-analysis of the deposited data

Results flagged for a closer look

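Of the groups of 5 libraries, 4 held 1 library far from the others, its gap to the nearest being more than 0.71 of the whole range of its group. Chance alone gives such a gap in about 1 in 20 groups, and 40 groups were examined. Rnf133 was at 492 normalized counts in KI library 5, below 676 to 727 in the other KI libraries. Rnf213 was at 316 in KI library 5, above 159.6 to 182 in the others. Rnf212b was at 84.3 in WT library 4, above 49.2 to 59.2, and Rnf151 at 6151 in WT library 4, above 4156 to 4718. Without KI library 5, Rnf133 kept its call, and Rnf213 did not (log2 fold change 0.47, limma, Benjamini-Hochberg adjusted p = 0.0702, with 0.000451 to 0.151 over all alternatives). The cause of these values was not tested.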

How the results depend on the processing

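Over 19 Rnf genes and their alternatives, 418 values were computed. Of these, 380 kept their direction and their side of the call, 27 kept the direction but lost the call, 4 gained one by dropping the fold change and 7 turned sign. Rnf133, Rnf138, Rnf139, Rnf44 and Rnf138rt1 kept their call under every alternative run. Rnf19b turned to 0.14 with library totals and 0.11 within libraries 4 and 5, and Rnf151 to −0.44 within libraries 4 and 5, with −0.06 to 0.17 when 1 library was left out. The cause was not tested.

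At an adjusted p under 0.01, a stricter threshold, 7 Rnf genes were called (2 up), and 605 of all genes were up. Without a fold change, 11 Rnf genes were down, and 3529 of all genes passed (2044 down, 1485 up). With library totals, all genes gave 789 down and 2145 up. Libraries 4 and 5 alone, with fewer samples, gave 2 Rnf genes and 471 of all genes up. Leaving out each library gave 9 to 12 Rnf genes called (6 to 7 down, 3 to 5 up), 1982 to 2315 of all genes (1136 to 1300 down, 817 to 1020 up) and a depth difference of −767343 to 130201 reads, above 0 without WT library 5 (7488). Rnf122 was called up in 5 of those fits and Rnf43 down in 2. The replicate block, pairing libraries by number, called 11 Rnf genes (7 down, 4 up) and 2410 of all genes (1343 down, 1067 up), beside 2209 without it. Among the named genes outside the Rnf list it added Hsd3b1 and Lhcgr as up, and it changed no other call given in the report. Low counts limit Rnf122 and Rnf150.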

Other observations

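Rnf123, a ligase acting on cell cycle inhibitors, showed no difference over all libraries (log2 fold change −0.01, limma, Benjamini-Hochberg adjusted p = 0.964), yet its groups did not overlap within either set of libraries. It was chosen after its values were seen, and the share of all genes with such a pattern is not given here. With so few libraries in each set, such a pattern can arise by chance. In libraries 1 to 3 it was at 1181, 1370.1 and 1227 normalized counts in WT and lower, at 1109.7, 1146 and 1105, in KI. In libraries 4 and 5 it was at 1409 and 1558 in WT and higher, at 1654 and 1795, in KI. The difference between the sets was 0.38 on the log2 scale and did not pass limma's interaction test, which was added after the data were seen (adjusted p = 0.192). Of its 75-base stretches 10.5% also occur in transcripts of other genes.

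Rnf122, left untested by the filter on low counts, was called up-regulated when no filter was applied. Pairs of related Rnf genes were compared for their coding sequence as well. Beyond the pairs given above, identity was 64.6% for Rnf138 and Rnf125, 65.6% for Rnf19a and Rnf19b, 67.3% for Rnf144a and Rnf144b, 70.0% for Rnf5 and Rnf185, 65.6% for Rnf115 and Rnf126 and 63.2% for Rnf149 and Rnf150. Exact matches in these pairs were at most 28 bases long. In the last 5 of these pairs, Rnf150 was the one gene called.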
